A study of Rattus norvegicus with 8 samples.

Results

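The genes described are 4 tissue inhibitors of metalloproteinases (*Timp1*, *Timp2*, *Timp3* and *Timp4*), 4 matrix metalloproteinases (*Mmp2*, *Mmp3*, *Mmp9* and *Mmp14*) and 2 ADAMTS proteases (*Adamts1* and *Adamts4*), which makes 10 of the 15159 genes with a named probe on the array. They were selected by name, and *Timp1* was selected on its high ratio after retinoic acid (RA), so its RA over vehicle values are given as a description with no test. Each gene was represented by its brightest probe. The 4 RA-injected and 4 vehicle-injected animals were male rats of the F344 strain, kept in short days (SD), that carried a cannula into the third ventricle and received 5 μl of all-trans RA or vehicle; the hypothalamus was taken 24 hrs later. The labels give the RA as 1e-05 M and the vehicle as saline, whereas the methods of the study give a higher concentration for the array experiment and name DMSO in saline as the solvent of RA. RNA of the 2 groups was compared directly with dye-swap on 8 two-colour arrays. RA was labelled with Cy5 on arrays 1, 3, 6 and 8 and with Cy3 on arrays 2, 4, 5 and 7. The first slide row held arrays 1 to 4 and the second row arrays 5 to 8. Nothing in the labels says which arrays share the RNA of the same rats.

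Matrix metalloproteinases are zinc-dependent proteases that cleave collagens, proteoglycans and other matrix proteins, and most are secreted as inactive proenzymes. The TIMPs bind in the active site and block it, so that the balance between both families sets how much matrix is cut. Some ADAMTS proteases, ADAMTS1 and ADAMTS4 among them, cleave the aggrecan family of proteoglycans, which surround many neurons. In the brain TIMP1 is known as an inhibitor that astrocytes make in response to injury and cytokines, whereas TIMP2 is known for its steady expression.

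After RA, *Timp1* was 4.57-fold higher than after vehicle, with a log2 ratio above 0 on all 8 arrays. The study's methods called genes at an unadjusted p under 0.01, and none of the other 9 genes passed it (0 in limma, 1 at an unadjusted p under 0.05). At that threshold 3.52% of all genes were higher and 0.792% lower after RA. At an adjusted p under 0.05 the share of all genes was 0% (0 probes in limma, lowest adjusted p 0.222, 3291 probes at an unadjusted p under 0.05). The log2 ratios of the other 9 genes stayed between -0.52 and 0.93 on single arrays, and *Timp1* was above the highest of them on every array, by 0.63 on array 4 and by up to 2.59 on array 7.

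**Figure D1:**
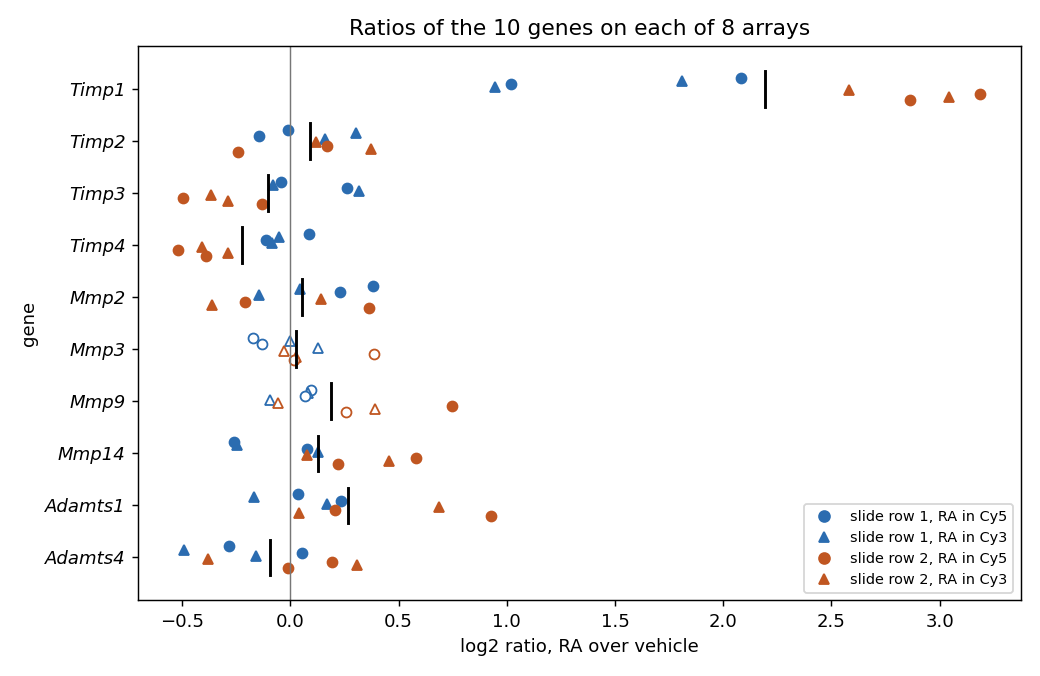
Log2 ratio of RA over vehicle (x axis) of each of the 10 genes (y axis) on each of the 8 arrays, with colours for the slide row, shapes for the dye order, and a black bar at the mean; open symbols mark arrays on which the probe was well above background in neither channel. *Timp1* lies between 0.94 and 3.19, and the other 9 genes lie around 0.

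The sequence upstream of the start of transcription is shown for the 4 inhibitors, since *Timp1* differed in its ratios from the other 3, and for *Mmp3*, which shares a motif with *Timp1*. Sequences of 250 bases are from RefSeq (GRCr8) and run 5′ to 3′, the last base being the one before the start. Of the 10 genes, 7 had an entry. Capitals mark, on either strand, TGACTCA and TGAGTAA (forms of the site of AP-1, the FOS and JUN dimer), AGGAAG (the core of Ets sites), GGGCGG (the GC box) and TATAAA (the TATA box).
Timp1 (chrX:3771123-3771372, minus strand): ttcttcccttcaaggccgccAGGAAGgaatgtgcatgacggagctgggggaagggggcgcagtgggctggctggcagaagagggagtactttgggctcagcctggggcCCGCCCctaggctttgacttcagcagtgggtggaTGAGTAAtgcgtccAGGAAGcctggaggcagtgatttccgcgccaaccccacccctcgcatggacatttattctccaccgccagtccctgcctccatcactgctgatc
Timp2 (chr10:104089215-104089464, minus strand): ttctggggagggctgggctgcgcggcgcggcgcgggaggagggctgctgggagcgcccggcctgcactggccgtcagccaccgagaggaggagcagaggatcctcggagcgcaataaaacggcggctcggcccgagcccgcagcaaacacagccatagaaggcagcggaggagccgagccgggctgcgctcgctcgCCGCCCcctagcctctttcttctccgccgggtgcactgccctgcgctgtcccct
Timp3 (chr7:19459559-19459808, minus strand): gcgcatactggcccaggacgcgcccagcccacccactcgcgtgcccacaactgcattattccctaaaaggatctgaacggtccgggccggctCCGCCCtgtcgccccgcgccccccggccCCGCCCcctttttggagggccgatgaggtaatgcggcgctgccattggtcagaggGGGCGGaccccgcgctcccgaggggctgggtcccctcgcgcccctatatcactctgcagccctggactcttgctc
Timp4 (chr4:149985205-149985454, minus strand): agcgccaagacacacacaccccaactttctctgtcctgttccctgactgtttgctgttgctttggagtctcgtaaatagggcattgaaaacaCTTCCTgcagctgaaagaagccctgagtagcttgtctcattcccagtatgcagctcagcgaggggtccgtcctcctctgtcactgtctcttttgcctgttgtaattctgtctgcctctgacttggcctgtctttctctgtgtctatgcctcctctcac
Mmp3 (chr8:12925031-12925280, plus strand): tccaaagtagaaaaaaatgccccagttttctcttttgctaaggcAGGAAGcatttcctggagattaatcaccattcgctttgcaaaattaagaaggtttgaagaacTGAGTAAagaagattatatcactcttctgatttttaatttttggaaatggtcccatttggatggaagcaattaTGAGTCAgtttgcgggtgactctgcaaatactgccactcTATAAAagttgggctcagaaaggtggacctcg

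In *Timp1*, TGAGTAA lay from 108 to 102 bases before the start, and AGGAAG from 230 to 225 and from 94 to 89 bases before it. TGAGTAA was found in 2 of the 7 genes, *Timp1* and *Mmp3*, and in 2.38% of the 33469 RefSeq promoters cut to the same 250 bases. Both genes also held AGGAAG, as did *Timp4* and *Adamts4*, so that it was in 4 of the 7 genes and in 29.5% of all promoters. Both TGAGTAA and AGGAAG were in 0.696% of promoters. TGACTCA was found in *Mmp3* alone among the 7 and in 4.05% of promoters. GGGCGG was present in *Timp1*, *Timp2*, *Timp3* and *Adamts1* (30.5% of promoters), and TATAAA in *Mmp3* and *Adamts1* (12.9%). Retinoic acid receptors bind pairs of a short core motif. Its form AGGTCA was found in 14.1% of promoters, the form GGGTCA in 11.9%, the form AGTTCA in 12.2% and the form GGTTCA in 9.77%. None of these 4 forms was in the 7 windows, whereas at least 1 was in 39.1% of promoters, which says only that these letters are not in this stretch. The motifs were chosen with the sequences in view and the matches are a description.

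*Timp1* encodes a secreted inhibitor of most matrix metalloproteinases that also binds the proenzyme of MMP9. With RA in Cy5 its log2 ratios were 2.08, 1.02, 3.19 and 2.87 on arrays 1, 3, 6 and 8. With RA in Cy3 they were 1.81, 0.94, 2.58 and 3.05 on arrays 2, 4, 5 and 7. The lowest ratios were those of arrays 3 and 4 and the highest those of arrays 6 and 7, and both dye orders covered nearly the same range. The mean was 2.29 ± 0.96 (SD, n = 4) with RA in Cy5 and 2.10 ± 0.92 (SD, n = 4) with RA in Cy3, and over all arrays the log2 fold change was 2.19 with a standard error of 0.31. This was the fifth highest rise among 15159 genes (rank 5). A ratio above 0 on all 8 arrays was found for 4.07% of genes.

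The probe of *Timp1* had 10 spots on each array, whose log2 ratios varied with an SD of 0.043 to 0.11 within an array. The ratios varied much more between arrays (SD 0.88 over 8 arrays). The normalised log2 intensity was 9.13, 9.29, 9.65, 9.67, 9.85, 10.17, 10.29 and 9.79 in the vehicle channel of arrays 1 to 8. In the RA channel it was 11.22, 11.10, 10.67, 10.61, 12.43, 13.35, 13.34 and 12.65. The lowest RA level was above the highest vehicle level, a pattern found for 0.257% of all genes. The vehicle levels varied less (SD 0.39 over 8 arrays) than the RA levels (SD 1.15 over 8 arrays). These arrays hold the RNA of 4 rats of each group, so the SDs are not of independent animals. In both channels every array of the second slide row was above every array of the first. More cells that make *Timp1* and more *Timp1* RNA per cell cannot be told apart in tissue blocks, and this holds for every gene below.

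**Figure D2:**
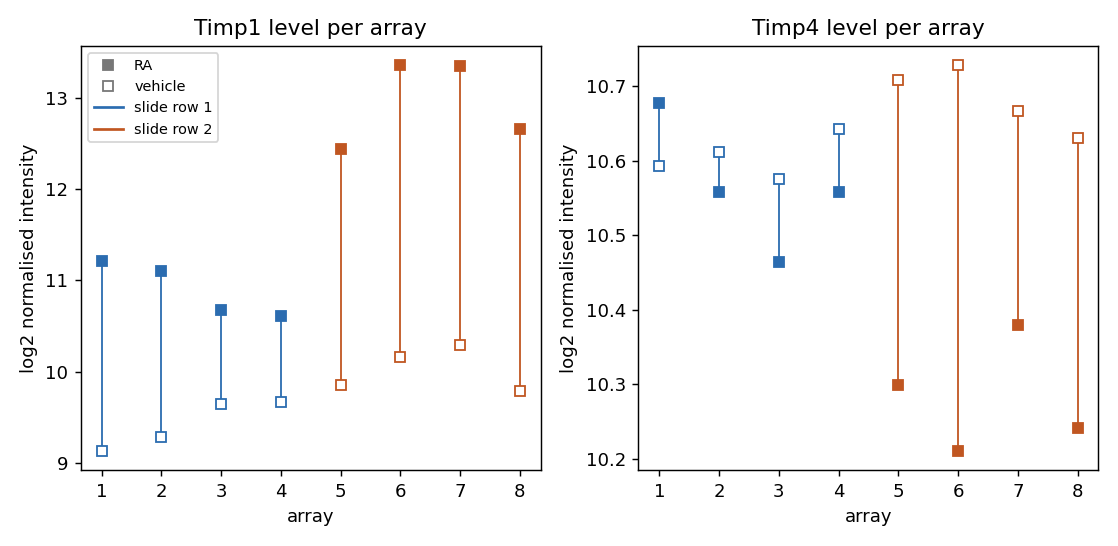
Normalised log2 intensity (y axis) of *Timp1* (left) and *Timp4* (right) in the RA channel (filled squares) and the vehicle channel (open squares) of arrays 1 to 8 (x axis), with colours for the slide row; the y axes differ and do not start at 0. The RA levels of *Timp1* lie above all of its vehicle levels, and the *Timp4* levels after RA lie below those of vehicle on 7 of 8 arrays.

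The ratios of *Timp1* on the 4 arrays of the second slide row were above all of those of the first. In the first row the mean was 1.46 (SD 0.57 over 4 arrays), which is 2.76-fold, and in the second it was 2.92 (SD 0.26 over 4 arrays), which is 7.57-fold. The difference of 1.46 (standard error 0.24) had an adjusted p of 0.0144 in limma, with the arrays treated as independent. As 8 arrays were made from 4 rats of each group, arrays share RNA and this p is too small. On the means of pairs of opposite dye order within a row, 2 against 2, the standard error was 0.30 and the adjusted p 0.238 in limma, so the difference did not pass. The row and the rats on it cannot be told apart. With arrays treated as independent, a difference between rows at an adjusted p under 0.05 was found for 2.41% of all genes. The difference between dye orders in *Timp1* was 0.19 (standard error 0.50, adjusted p = 0.863 in limma). For a difference between dye orders none of the 10 genes passed (0 at an adjusted p under 0.05 in limma, 1 at an unadjusted p under 0.05). Of all genes 3.91% passed. This fit also treated the arrays as independent. Variation between rats then enters the standard error, and a dye effect can be missed.

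*Timp2* encodes the inhibitor that also links the membrane protease MMP14 to the proenzyme of MMP2. Its log2 ratios were -0.012, -0.15, 0.17 and -0.24 on arrays 1, 3, 6 and 8, and 0.30, 0.16, 0.12 and 0.37 on arrays 2, 4, 5 and 7. All arrays with RA in Cy3 were above 0, whereas 3 of the 4 with RA in Cy5 were below it. The means were -0.06 and 0.24 by dye order, a difference of -0.30 (standard error 0.10, adjusted p = 0.125 in limma). That fit treated the arrays as independent and can miss a dye effect. The log2 fold change over both orders was 0.09 (standard error 0.06, adjusted p = 0.696 in limma). *Timp2* was at 13.95 to 14.68 in both channels of 7 arrays and at 12.61 and 12.49 in the RA and vehicle channels of array 5, and the levels of the groups overlapped.

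*Timp3* encodes the inhibitor that stays bound to the matrix and also blocks ADAM and ADAMTS proteases. Its log2 ratios were -0.044, 0.26, -0.49 and -0.13 on arrays 1, 3, 6 and 8, and -0.079, 0.32, -0.36 and -0.29 on arrays 2, 4, 5 and 7. Arrays 3 and 4 were above 0 and the other 6 below it. The log2 fold change was -0.10 (standard error 0.10, adjusted p = 0.810 in limma). In the first slide row the mean was 0.11 and in the second -0.32, so that the sign differed by row (difference -0.43, standard error 0.12, adjusted p = 0.127 in limma).

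*Timp4* encodes the inhibitor with the most restricted expression, found mainly in brain, heart and muscle. Its log2 ratios were 0.084, -0.11, -0.52 and -0.39 on arrays 1, 3, 6 and 8, and -0.054, -0.084, -0.41 and -0.29 on arrays 2, 4, 5 and 7. The 4 arrays of the second row were the lowest and array 1 alone was above 0. The log2 fold change of -0.22 (standard error 0.08) had an adjusted p of 0.389 in limma and was the lowest of the 10 genes. A second probe of *Timp4* gave -0.20 (standard error 0.07, adjusted p = 0.398 in limma) and was below 0 on 6 of 8 arrays. The mean was -0.04 in the first row and -0.40 in the second (difference -0.36, standard error 0.08, adjusted p = 0.0673 in limma). RA levels ran from 10.21 to 10.68 and vehicle levels from 10.58 to 10.73, with overlap.

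*Mmp2* encodes gelatinase A, which cleaves denatured collagen and basement membrane collagen. Its log2 ratios were 0.38, 0.23, -0.21 and 0.36 on arrays 1, 3, 6 and 8, and 0.044, -0.14, 0.14 and -0.36 on arrays 2, 4, 5 and 7. Arrays 6 and 7 were the lowest. The log2 fold change was 0.06 (standard error 0.09, adjusted p = 0.896 in limma), and a second probe gave 0.07 (standard error 0.07, adjusted p = 0.783 in limma).

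*Mmp14* encodes the membrane-anchored protease that activates the proenzyme of MMP2. Its log2 ratios were -0.26, 0.075, 0.58 and 0.22 on arrays 1, 3, 6 and 8, and -0.25, 0.13, 0.079 and 0.45 on arrays 2, 4, 5 and 7. Arrays 6 and 7 were the highest and arrays 1 and 2 the lowest. The log2 fold change was 0.13 (standard error 0.11, adjusted p = 0.763 in limma), with row means of -0.08 and 0.33 (difference 0.41, standard error 0.13, adjusted p = 0.210 in limma). RA levels of 10.17 to 11.19 overlapped with vehicle levels of 10.43 to 10.79.

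*Mmp9*, which encodes gelatinase B, the protease carried in the granules of neutrophils, was well above background on array 6 alone, in the RA channel, and on no array in the vehicle channel. Its log2 ratio was 0.74 on array 6, 0.39 on array 7 and 0.26 on array 8. The other 5 arrays gave -0.092 to 0.095. As 1 of the 16 channels measured *Mmp9*, no fold is given (adjusted p = 0.544 in limma). *Mmp3*, which encodes stromelysin 1, an activator of other metalloproteinases, was not well above background on any array in either channel and no fold is given. Its normalised log2 intensity was between 5.89 and 6.27 in all 16 channels.

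*Adamts1* encodes a protease that cleaves aggrecan and versican and is known to be induced by inflammation. Its log2 ratios were 0.035, 0.24, 0.21 and 0.93 on arrays 1, 3, 6 and 8, and -0.17, 0.17, 0.69 and 0.04 on arrays 2, 4, 5 and 7. Arrays 5 and 8 stood above the others and array 2 alone was below 0. The log2 fold change was 0.27 (standard error 0.13, adjusted p = 0.518 in limma), the highest of the 9 genes other than *Timp1*, and the levels overlapped. *Adamts4* encodes an aggrecanase that also cleaves brevican. Its log2 ratios ran from -0.49 on array 2 to 0.31 on array 7, and the log2 fold change was -0.10 (standard error 0.10, adjusted p = 0.806 in limma).

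**Figure D3:**
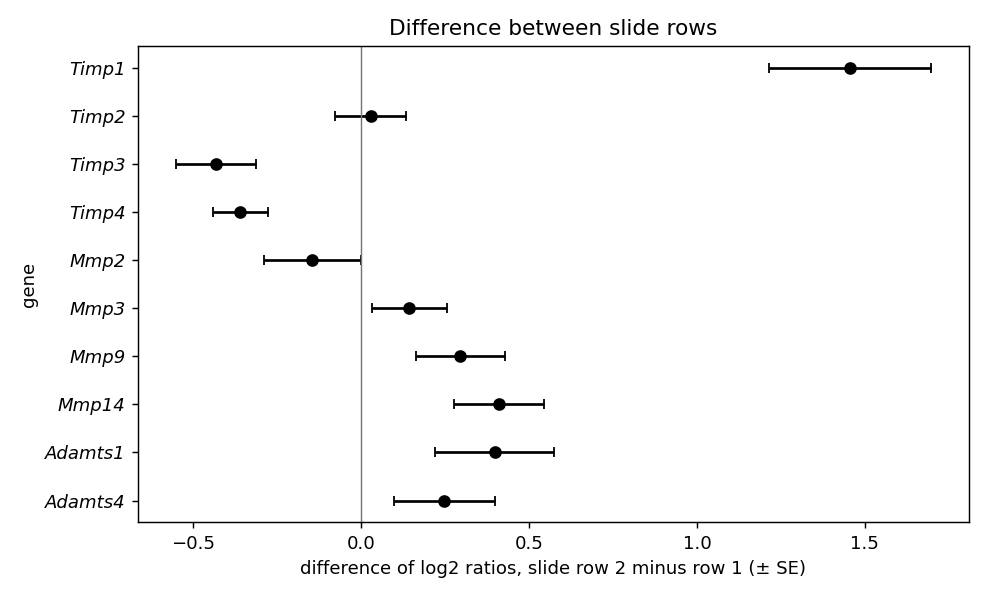
Difference of the mean log2 ratio between slide rows (x axis, second row minus first, ± standard error of the fit with 8 arrays treated as independent) for each of the 10 genes (y axis). *Timp1* differs by 1.46, *Timp3* by -0.43 and *Timp4* by -0.36.

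Of the 10 genes, 7 had a higher mean ratio in the second row than in the first, among them *Mmp3* and *Mmp9*, which were at background on nearly all arrays, and *Timp3*, *Timp4* and *Mmp2* had a lower one. With arrays treated as independent, the lowest adjusted p of limma after that of *Timp1* was 0.0673, for *Timp4*, and on pair means within rows it was 0.410 for *Timp4*.

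The genes whose ratios were nearest to those of *Timp1*, by the root mean square difference over the 8 arrays, were *Slpi* (0.37), *Lgals3* (0.44), *Fcgr3a* (0.48), *Spp1* (0.51) and *Mcm3* (0.53), out of 9566 genes for which RA was well above background on all arrays. The median over these genes was 2.35. *Slpi* encodes a secreted inhibitor of serine proteases, *Lgals3* galectin 3, *Fcgr3a* an Fc receptor of phagocytes, *Spp1* the matrix protein osteopontin and *Mcm3* a subunit of the replicative helicase. *Slpi* had ratios of 0.65 to 1.78 in the first row and 1.77 to 3.37 in the second. *Spp1* was at 0.36 and 0.35 on arrays 3 and 4 and at 3.04 to 3.73 in the second row. Apart from *Slpi* on array 5, all 5 were higher on each array of the second row than on any of the first, as *Timp1* was. They were selected for nearness to *Timp1* on these same arrays, so a like row difference comes with the selection. This resemblance is a description over 8 arrays, some of which share RNA.

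Markers of other cell types were compared with *Timp1*. Genes were called at an unadjusted p under 0.01 in limma, which 3.52% of all genes passed as higher and 0.792% as lower. No marker gene had an adjusted p under 0.05 in limma. Of 9 measured genes of a list for reactive astrocytes, 8 were called higher after RA with a median log2 fold change of 1.40, among them *Gfap*, the intermediate filament of astrocytes, at 1.40. The median of this list was 0.47 to 0.79 on the arrays of the first row and 1.69 to 2.67 on those of the second, and its summed log2 level was 12.88 to 15.24 after RA and 12.12 to 12.90 after vehicle. *Osmr*, the oncostatin M receptor on this list, was well above background on 2 arrays in each channel and had a log2 fold change of 0.013. Of 8 microglia genes 2 were called higher (*Aif1*, 0.88, and *Itgam*, 0.87) and 1 lower (*Tmem119*, -0.52), with a median of 0.02 for the list and summed levels of 14.21 to 14.93 after RA and 14.08 to 14.65 after vehicle. Of 5 monocyte and macrophage genes 2 were called higher. They were *Cd14* (1.43), a receptor for bacterial lipopolysaccharide, with row means of 0.91 and 1.94, and the lysozyme gene *Lyz2* (1.30), with row means of 0.68 and 1.92. The median of that list was 0.17, and its summed level was 13.19 to 15.31 after RA and 12.42 to 13.40 after vehicle. Of 7 general astrocyte genes 1 was called higher (*Gfap*) and 1 lower (*Gja1*, a gap junction gene, -0.22), with a median of -0.06 and summed levels of 17.11 to 17.44 after RA and 17.19 to 17.53 after vehicle. The part of these cell types in the *Timp1* ratio was not tested.

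Of 7 neutrophil genes 2 were called higher, *S100a9* (1.25) and *Csf3r* (0.42), beside 3.52% of all genes, and the median of the list was 0.09. *S100a8* (0.94), *Cxcr2* (0.09), *Camp* (0.05) and *Ngp* (-0.008) were not called. The neutrophil elastase gene *Elane* was not well above background on any array. The summed level of the list was 9.56 to 11.08 after RA and 9.36 to 9.74 after vehicle. These values stand beside the *Mmp9* ratio, and the part of neutrophils in it was not tested.

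None of 10 choroid plexus genes was called (0 in limma), but their median was -1.37 and -1.42 on arrays 6 and 7 and 0.02 to 0.59 on the other arrays. Arrays 6 and 7 were those with the highest ratios of *Timp1* and *Mmp14* and the lowest of *Mmp2*. On arrays 5 and 8, where *Adamts1* was highest, the medians of hypothalamic neuropeptide genes were -0.58 and -0.60 and those of meningeal fibroblast genes -0.61 and -0.72. The part of the dissected tissue in these ratios was not tested. As for the label of the tissue, 12 of 13 measured hypothalamic neuropeptide genes were well above background on all arrays.

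**Figure D4:**
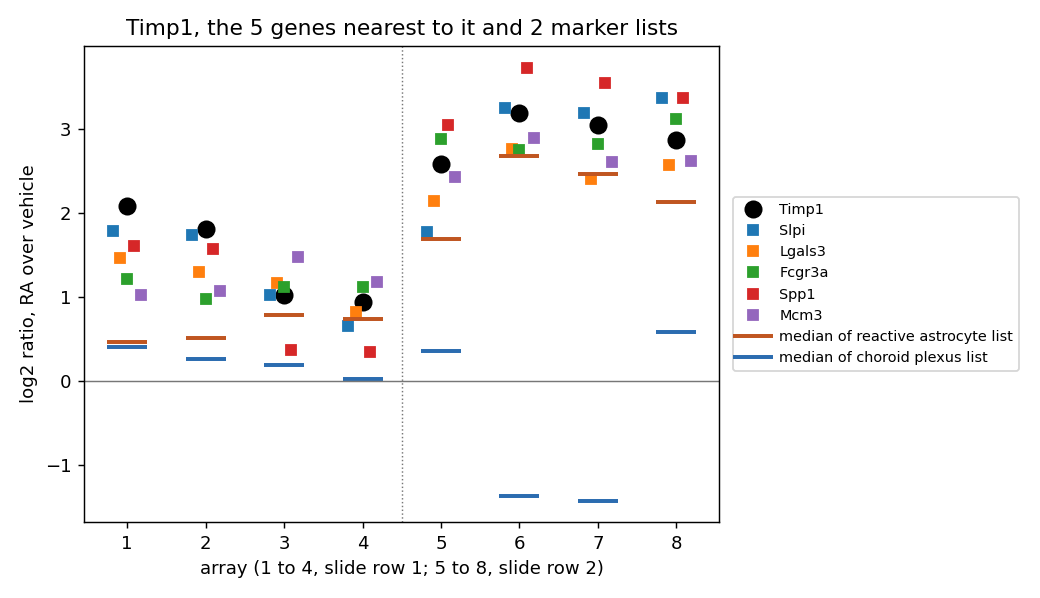
Log2 ratio of RA over vehicle (y axis) on arrays 1 to 8 (x axis) for *Timp1* (black), the 5 genes nearest to it (coloured squares), and the medians of the reactive astrocyte list (orange bars) and the choroid plexus list (blue bars). *Timp1* lies at 0.94 to 2.08 on arrays 1 to 4 and at 2.58 to 3.19 on arrays 5 to 8, and the reactive astrocyte median at 0.47 to 0.79 and 1.69 to 2.67.

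The proteases and inhibitors around these genes were examined with lists taken from general knowledge of the pathway. The lists were drawn up with earlier results of these data known, so the shares below are a description. Of 80 measured genes 13 were called higher (16.25%) and 1 lower (1.25%) at an unadjusted p under 0.01, beside 3.52% and 0.792% of all genes. Their median log2 fold change was 0.05, beside -0.0047 for all genes. None had an adjusted p under 0.05, and the adjusted p of the genes named here is from limma.

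No metalloproteinase was among the 13 higher genes, of which 6 stood on the list of cytokines, receptors and transcription factors, 4 on that of other inhibitors and binding partners, 2 on that of matrix substrates and 1 on that of the plasminogen activator system. Of 17 other matrix metalloproteinases none was called (0 in limma) and the median log2 fold change was -0.02; 7 of them were not well above background on any array in either channel. *Mmp7*, matrilysin, was well above background on 5 arrays after RA and 1 after vehicle. Its log2 fold change was 0.71 (standard error 0.23, adjusted p = 0.351), with a mean of 0.15 in the first row and 1.26 in the second. *Mmp20*, enamelysin, was dim on all arrays, and *Mmp19* was well above background on 2 arrays after RA and none after vehicle.

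Of 7 other ADAMTS proteases, *Adamts18* fell by 0.20 on the log2 scale (standard error 0.05, adjusted p = 0.268) and was below 0 on 8 of 8 arrays, a pattern found for 1.8% of all genes. *Adamts7* had a log2 fold change of 0.23 (adjusted p = 0.358) and *Adamts9* of 0.15 (adjusted p = 0.421). None of 5 ADAM sheddases was called (0 in limma), and the 3 with the lowest p were *Adam17*, which releases tumour necrosis factor, at 0.09, *Adam15* at 0.12 and *Adam23* at -0.08.

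In the plasminogen activator system, which produces the plasmin that activates several metalloproteinases, 1 of 9 genes was called higher. It was *S100a10*, a cell surface partner of plasminogen, at 0.38 (standard error 0.10, adjusted p = 0.276). *Serpine2*, protease nexin 1, was at -0.17 (standard error 0.06, adjusted p = 0.371).

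Of 11 other inhibitors and binding partners 4 were called higher and none lower. *A2m*, the broad protease inhibitor alpha-2-macroglobulin, had a log2 fold change of 0.77 (standard error 0.12, adjusted p = 0.222) and a ratio above 0 on 8 of 8 arrays. *Lcn2*, lipocalin 2, which forms a complex with MMP9, was at 1.66 (standard error 0.38, adjusted p = 0.268), with a mean of 0.69 in the first row and 2.64 in the second. *Cd44*, a hyaluronan receptor that holds MMP9 at the cell surface, was at 0.84 (standard error 0.17, adjusted p = 0.242). *Cd63*, a tetraspanin that binds TIMP1, was at 0.34 (standard error 0.10, adjusted p = 0.297). *Lcn2* and *Cd44* also stand on the reactive astrocyte list.

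Of 10 matrix substrates 2 were called higher. They were *Fn1*, fibronectin, at 0.50 (standard error 0.14, adjusted p = 0.306), and *Tnc*, the glycoprotein tenascin C, at 0.38 (standard error 0.10, adjusted p = 0.290). *Bcan*, the brain proteoglycan brevican, was at -0.20 (standard error 0.06, adjusted p = 0.319) and below 0 on all 8 arrays.

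Of 21 cytokines, receptors and transcription factors known to act on *Timp* and *Mmp* genes, 6 were called higher and none lower. The log2 fold change was above 0 for 18 of the 21. The cytokines *Il1b* and *Tnf* were at 1.30 (standard error 0.31, adjusted p = 0.268) and 0.82 (standard error 0.14, adjusted p = 0.222), and the receptor gene *Tnfrsf1a* at 0.56. Among transcription factors *Stat3* was at 0.51, *Fos* at 0.30 and *Fosl1* at 0.23, with ratios above 0 on 8, 7 and 8 arrays. *Fosl1* was well above background on 5 arrays after RA and 1 after vehicle. *Il6* was not well above background on any array. With 1 array of each dye order left out, 4 to 16 of the 80 genes were called in place of 14. The number was 4 without arrays 8 and 5 and 8 without arrays 8 and 4. It was 9 without arrays 6 and 7 and also without arrays 6 and 5. Each of these fits had fewer arrays, and the cause of the differences was not tested.

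**Figure D5:**
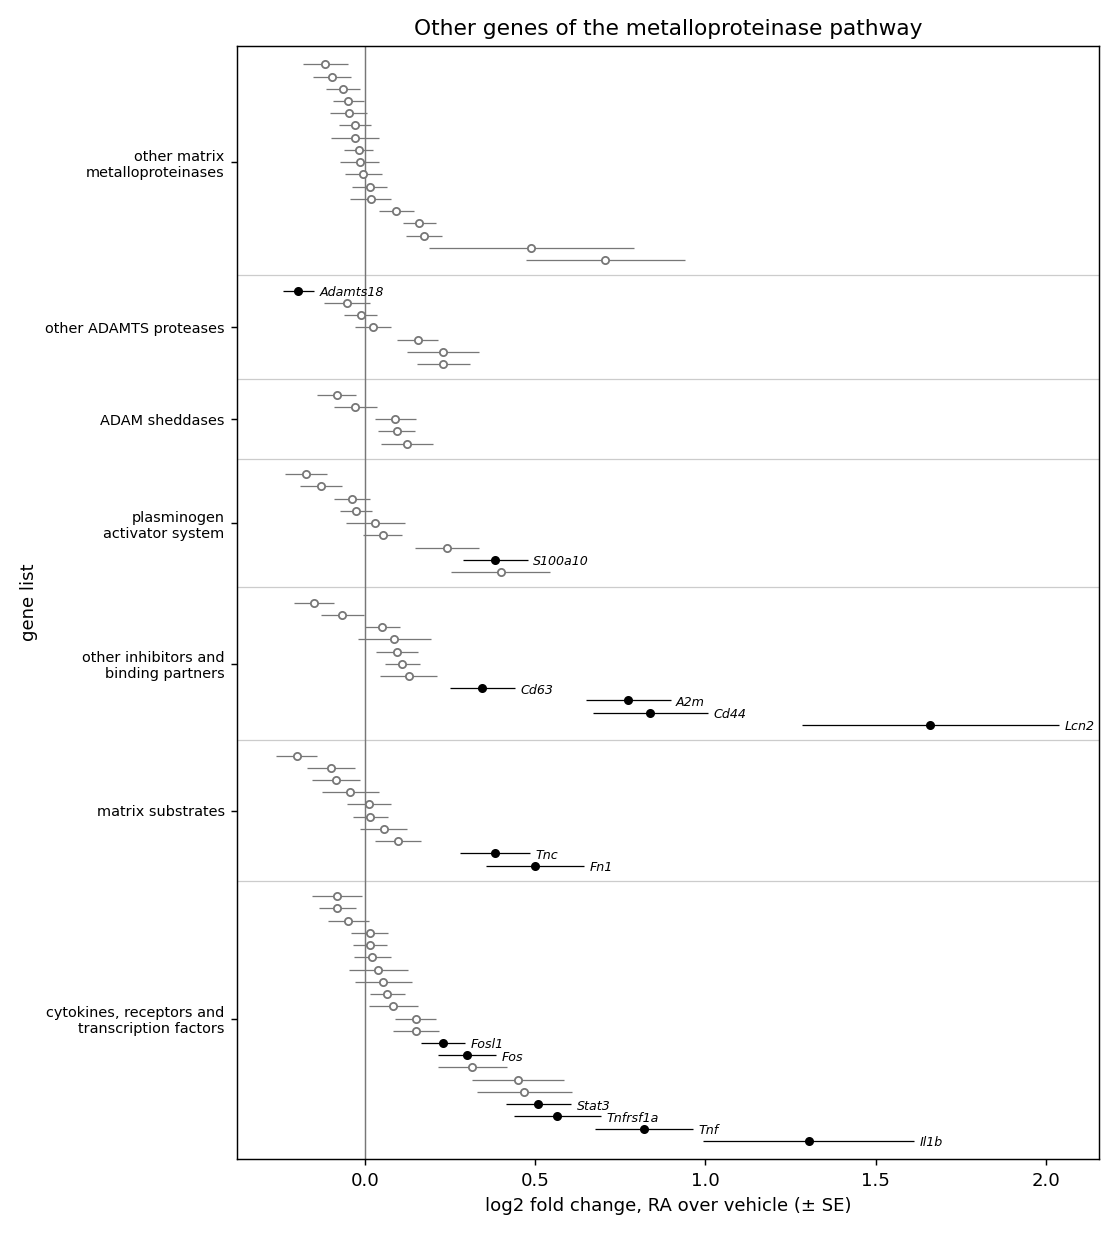
Log2 fold change of RA over vehicle (x axis, ± standard error of the fit) of the 80 measured genes in 7 pathway lists (y axis), with filled symbols and names for the 14 genes at an unadjusted p under 0.01. The called genes lie at 0.23 or more, except for *Adamts18* at -0.20.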

How the data were processed

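RNA from the hypothalamus of rats given RA or vehicle was hybridised to 8 two-colour arrays (Agilent) in both dye orders. The 10 genes and the gene lists were chosen with earlier results of these data known. The authors deposited each array's Cy3 and Cy5 intensity per spot on a linear scale with Agilent's log10 ratio of Cy5 over Cy3 (Feature Extraction 10.7.3.1), and a table of normalised log2 ratios. In R 4.3.3 with limma 3.58.1, spot medians were background-corrected by normexp (offset 50), flagged outlier spots (0.913% to 2.42% per array) and control spots were dropped, loess was applied within arrays, spots of a probe were averaged and signs were turned to RA over vehicle. Levels used Aquantile scaling. Of 30367 probes, 18006 (59.3%) matched a GRCr8 RefSeq gene by accession, and the brightest probe stood for a gene. Well above background means Agilent's mark on at least 0.5 of a probe's spots.

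Arrays of opposite dye order were paired in all 24 ways, and limma was fitted to the 4 means of each pairing; the largest p per probe was kept and adjusted by Benjamini-Hochberg over all probes. Terms for dye order and slide row were fitted on 8 arrays. Between 57.4% and 74.6% of probes per channel were well above background; the number of arrays limits precision.

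The text names the 10 genes, the 5 genes nearest to *Timp1*, and in each pathway list every gene with an unadjusted p under 0.01, filled by lowest p up to 3 (1 gene so chosen is not reported here); marker genes and *Mmp7*'s row means were named after values were seen. Alternatives were no background correction, Agilent's ratio, the deposited values, outlier spots kept, bright probes only, other treatments of shared RNA, each dye order or slide row alone, other probes, and each pair of arrays left out.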

Additional observations from a re-analysis of the deposited data

Results flagged for a closer look

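The log2 ratio of *Timp1* was higher by 1.46 in the second slide row than in the first (limma, adjusted p = 0.0144, 8 arrays treated as independent though they share RNA). On pair means within rows, 2 against 2, the adjusted p was 0.238. The row and the rats hybridised there cannot be told apart. In the 20 groups of 4 arrays (10 genes in 2 dye orders), 0 arrays lay far enough from the others to pass Dixon's test.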

How the results depend on the processing

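The *Timp1* log2 ratio stayed between 1.46 and 2.92 over 29 alternatives, and between 1.88 and 2.60 when a pair of arrays was left out. The number of probes called, 988, was 330 with Agilent's log ratio, 2481 with 8 independent arrays, 1722 with pairs as a random block, 3142 in the pairing with the most calls, 2161 with RA in Cy5 alone, 2317 with RA in Cy3 alone, and 455 to 1111 with a pair left out. Of the 9 other genes, 0 were called, against 1 with 8 independent arrays (*Timp4*), 3 in the pairing with the most calls (*Timp4*, *Mmp9* and *Adamts1*), 1 with RA in Cy3 alone (*Timp2*), 2 in the second slide row (*Timp3* and *Timp4*), and 0 to 1 with a pair left out (*Timp4*, without arrays 1 and 2). Of the pathway genes 14 were called, against 4 with Agilent's log ratio, 9 among bright probes, 26 with 8 independent arrays, 23 with the random block, 30 in the pairing with the most calls, 8 in the first row, and 4 to 16 with a pair left out. For a difference between dye orders no gene of the 10 passed in 4 alternatives (0). Between slide rows 1 passed, against 2 without background correction and 2 with the deposited values. With Agilent's log ratio and on pair means within rows 0 passed. On those pair means 4 of the 10 genes were at an unadjusted p under 0.05 in limma, beside 2177 of all 30367 probes. The pair means within rows were an alternative added after the data were seen.

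The sign turned for *Timp2* with RA in Cy5 (-0.058), *Mmp2* with RA in Cy3 (-0.080) and in the second row (-0.017), *Adamts4* in the second row (0.028), and *Timp3* (0.11) and *Mmp14* (-0.076) in the first. With a pair left out, ranges crossed 0 for *Timp3* (-0.23 to 0.0072), *Mmp2* (-0.013 to 0.17), *Mmp14* (-0.0011 to 0.26) and *Adamts4* (-0.21 to 0.0011). The cause was not tested. *Mmp3* was at background in both channels and its ratios carry no direction (-0.14 with Agilent's log ratio, -0.043 in the first row, -0.048 to 0.071 with a pair left out).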
